A study of Homo sapiens with 4 samples.

Results

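The 10 genes described here are markers of fibroblasts and genes of the stromal matrix other than collagens, namely FN1, POSTN, DCN, LUM, ELN, FBN1, THY1, PDGFRA, PDGFRB and VIM. They are a list of named genes and were located in the table of read counts by matching Ensembl identifiers to symbols, which gave 10 of 60234 genes. The cells were NKX2.5:GFP hESCs, an established human embryonic stem cell line in which GFP is placed at the NKX2-5 locus and marks cells of the cardiac lineage. They were taken through cardiac differentiation in spin embryoid bodies, with 1 µM retinoic acid (RA) or the solvent DMSO (CTR) present between day 4 and day 7. According to the description of the series, the cells were sorted by GFP at day 31, whereas the methods of the study give 30 days. The groups were therefore RA-treated NKX2.5:GFP-positive cells, RA-treated NKX2.5:GFP-negative cells, CTR NKX2.5:GFP-positive cells and CTR NKX2.5:GFP-negative cells, each with 1 library of total RNA. All groups share the one reporter line, and the GFP-negative cells are defined by the lack of GFP rather than by any stromal marker.

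Gene counts added up to 28125727 in RA GFP-positive, 26222787 in RA GFP-negative, 28643091 in CTR GFP-positive and 4371101 in CTR GFP-negative cells. The CTR GFP-negative library was thus the smallest, and the others held 5.999 to 6.55 times its reads. Levels are given in CPM, counts per 1000000 counts of a library after scaling with TMM factors of the 4 libraries. A gene with 0 reads could still have up to 3, which is 0.639 CPM in the smallest library and 0.105 to 0.117 CPM in the others. The lowest count of any of the 10 genes was 42 reads, for THY1 in CTR GFP-positive cells. Intervals are at the 95% level, exact Poisson for a CPM and Clopper-Pearson for a ratio or a share, and like the 3-read limit they cover counting error only, since amplified reads are not independent molecules. With 1 library per group there was no replicate check and no test, and a difference was counted when it reached 2-fold on the log2(CPM + 1) scale in a gene with 10 CPM or more in either library. That scale understates the differences of low genes. A gene that reached 10 CPM in just 1 of the compared libraries had the direction of its difference nearly fixed by this filter, and such genes are counted below as passing through 1 library.

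As background, fibroblasts and related stromal cells build the extracellular matrix of the heart: fibronectin and periostin link cells to collagen, decorin and lumican coat collagen fibrils, and elastin and fibrillin-1 make up elastic fibres. The receptors for platelet-derived growth factors drive the growth and migration of mesenchymal cells, and PDGFRA is in addition a marker of the mesoderm from which heart cells arise. THY1 is a surface glycoprotein used to isolate fibroblasts, and vimentin is the intermediate filament protein of mesenchymal cells.

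Together the 10 genes took 1.76% of all reads in RA GFP-negative cells (interval 1.76 to 1.77), 1.08% in CTR GFP-negative cells (1.07 to 1.09), 0.361% in RA GFP-positive cells (0.359 to 0.364) and 0.149% in CTR GFP-positive cells (0.148 to 0.151). The share was therefore highest in GFP-negative cells and, in each fraction, higher with RA, and no pair of these intervals overlapped. FN1 alone made up the larger part of each share, with 0.988% and 0.673% of reads in RA and CTR GFP-negative cells. In RA and CTR GFP-positive cells FN1 took 0.208% and 0.0916%. In 8 of the 10 genes the level itself followed the same order, RA GFP-negative, CTR GFP-negative, RA GFP-positive and CTR GFP-positive. This order was found in 13.0% of the 12407 genes that reached 10 CPM in at least 1 library. The exceptions were POSTN, which differed in the middle pair, and PDGFRA, which was highest in RA GFP-positive cells. All 10 were higher with RA than in CTR in both fractions, as were 34.6% of the 12407 genes. Of the 30 pairs of neighbouring levels, 1 had overlapping CPM intervals, that of PDGFRA in RA GFP-negative and CTR GFP-positive cells. Such pairs were not counted over all genes, so this number shows nothing particular to the 10. These are bulk libraries, so that fewer stromal cells in a fraction and less RNA of these genes per cell cannot be told apart. RA-treated and CTR cells were also grown apart, and a difference between cultures cannot be told apart from the RA difference.

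**Figure D1:**
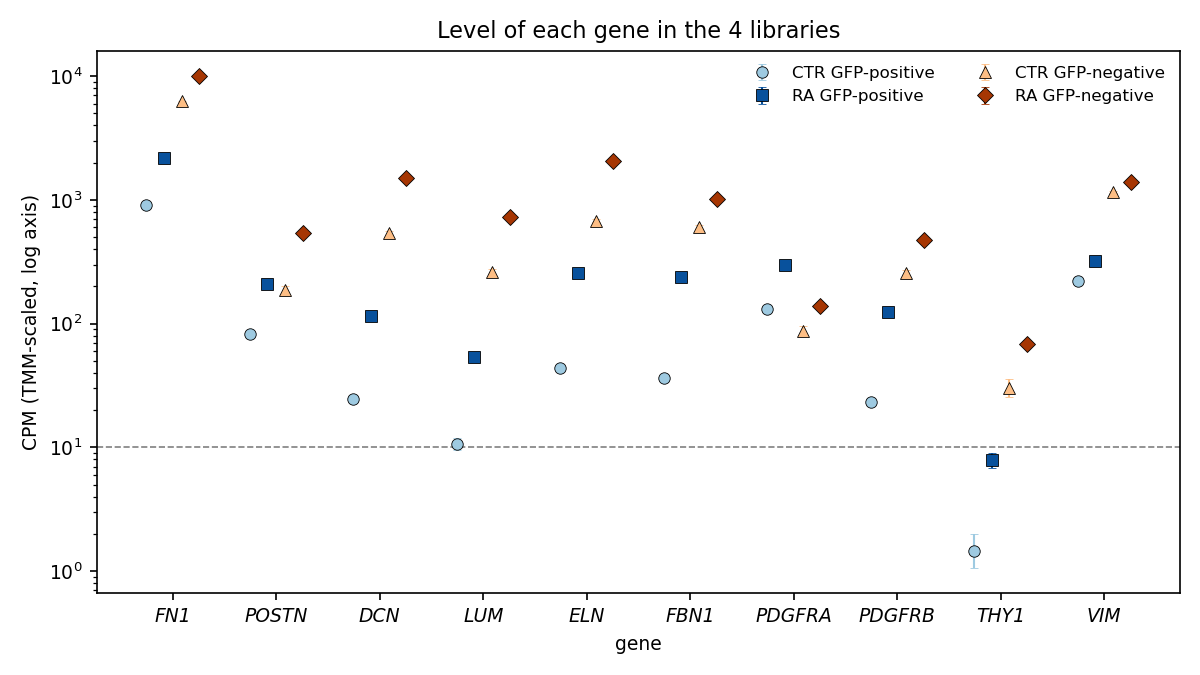
CPM of each of the 10 genes (log axis) in the 4 libraries, with exact Poisson 95% intervals, which are mostly smaller than the symbols. The dashed line is at 10 CPM. Of the 10 genes, 9 are highest in RA GFP-negative cells, from 67.8 CPM for THY1 to 10097 CPM for FN1, and PDGFRA is highest in RA GFP-positive cells.

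FN1 (ENSG00000115414, chr2:216225163-216300796 of GRCh37, minus strand) encodes fibronectin, an adhesive glycoprotein that binds integrins and collagen. Its level was 10097 CPM in RA GFP-negative cells (interval 10058 to 10136), 6265 in CTR GFP-negative cells (6194 to 6337), 2184 in RA GFP-positive cells (2166 to 2202) and 916 in CTR GFP-positive cells (905 to 927). Both GFP-negative libraries lay above both GFP-positive libraries, and no intervals overlapped. By number of reads FN1 held rank 5 among all genes in RA GFP-negative cells, with 0.988% of the library, rank 7 in CTR GFP-negative cells, and ranks 22 and 72 in RA and CTR GFP-positive cells. With RA it was 2.39-fold higher in GFP-positive cells (2.35 to 2.42) and 1.61-fold higher in GFP-negative cells (1.59 to 1.63). The difference reached 2-fold in GFP-positive cells and not in GFP-negative cells, and whether the fractions differed in this was not tested.

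POSTN (ENSG00000133110, chr13:38136720-38172981, minus strand) encodes periostin, a matricellular protein of developing valves and of activated fibroblasts. Its CPM was 537 in RA GFP-negative cells (528 to 546), 208 in RA GFP-positive cells (203 to 214), 187 in CTR GFP-negative cells (175 to 199.8) and 82.6 in CTR GFP-positive cells (79.3 to 86.0). RA GFP-positive cells came out 1.11-fold above CTR GFP-negative cells (1.04 to 1.20), a log2 difference of 0.15 that turned to -0.02 under scaling by library size, so that these middle groups have no settled order. RA was associated with a 2.52-fold higher level in GFP-positive cells (2.40 to 2.65) and a 2.87-fold higher level in GFP-negative cells (2.68 to 3.08). POSTN was the member with the largest GFP-positive level relative to the GFP-negative level apart from PDGFRA, at 44.2% in CTR (40.8 to 47.8) and 38.8% with RA (37.6 to 40.0).

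The promoters of FN1 and POSTN are shown because both genes were higher with RA in both fractions while the spacing of their levels between fractions was unlike. The sequences are the 200 bases before the RefSeq start (GRCh38.p14), read 5′ to 3′ on the strand of the gene, at chr2:215436069-215436268 (minus strand) for FN1 and chr13:37598769-37598968 (minus strand) for POSTN. Capitals mark matches, on either strand, to the TATA box letters TATAA, the CCAAT box letters CCAAT, the GC box letters GGGCGG, the cyclic AMP element letters TGACGTCA and the nuclear receptor letters AGGTCA, none of which contains another.
FN1: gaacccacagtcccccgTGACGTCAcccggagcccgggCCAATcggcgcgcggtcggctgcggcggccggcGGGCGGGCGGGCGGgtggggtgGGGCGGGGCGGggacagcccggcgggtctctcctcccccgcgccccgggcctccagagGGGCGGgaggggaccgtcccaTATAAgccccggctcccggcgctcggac
POSTN: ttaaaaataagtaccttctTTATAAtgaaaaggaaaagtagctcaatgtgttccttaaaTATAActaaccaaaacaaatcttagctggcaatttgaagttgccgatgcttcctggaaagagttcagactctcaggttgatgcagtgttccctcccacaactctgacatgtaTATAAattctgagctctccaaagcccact
The FN1 promoter held matches to 4 of these motifs, among them a TATAA that began 28 bases before the start and 6 copies of GGGCGG, overlapping in places. The POSTN promoter held TATAA alone, nearest at 29 bases before the start. G and C made up 76.4% of the 250 bases before the start in FN1 and 36.4% in POSTN, against a median of 58.0% over 35116 promoters. In the same 250 bases, TATAA was present in 18.9% of these promoters, CCAAT in 32.0%, GGGCGG in 42.6%, TGACGTCA in 1.65% and AGGTCA in 12.1%. A match describes letters in the window, and whether any factor binds there was not measured.

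DCN (ENSG00000011465, chr12:91534261-91576994, minus strand) encodes decorin, a small leucine-rich proteoglycan that binds collagen fibrils. It stood at 1507 CPM in RA GFP-negative cells (1492 to 1522), 536 in CTR GFP-negative cells (515 to 557), 115 in RA GFP-positive cells (111 to 119) and 24.7 in CTR GFP-positive cells (22.9 to 26.6). The GFP-negative libraries were well above the GFP-positive libraries, and the RA library was the higher in each fraction. The RA level was 4.64-fold the CTR level in GFP-positive cells (4.27 to 5.04) and 2.81-fold in GFP-negative cells (2.70 to 2.93). GFP-positive cells held 4.61% of the GFP-negative level in CTR (4.23 to 5.01) and 7.61% with RA (7.33 to 7.89).

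LUM (ENSG00000139329, chr12:91496406-91505271, minus strand) encodes lumican, a keratan sulfate proteoglycan of the same family. Its levels were 724 CPM in RA GFP-negative cells (714 to 734), 262 in CTR GFP-negative cells (247 to 277), 53.7 in RA GFP-positive cells (51.0 to 56.6) and 10.6 in CTR GFP-positive cells (9.45 to 11.9). The order was that of DCN, and in CTR GFP-positive cells LUM lay at the 10 CPM limit. LUM was 5.06-fold higher with RA in GFP-positive cells (4.47 to 5.75) and 2.77-fold higher in GFP-negative cells (2.61 to 2.94), and its GFP-positive level was 4.06% of the GFP-negative level in CTR (3.57 to 4.60) and 7.42% with RA (7.03 to 7.83).

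DCN and LUM lie next to each other on chromosome 12, 28989 bases apart and on the same strand, in a cluster of proteoglycan genes that continues with KERA and EPYC. The ratio of DCN to LUM reads was 2.13 in RA GFP-positive cells (2.003 to 2.27), 2.08 in RA GFP-negative cells (2.05 to 2.12), 2.33 in CTR GFP-positive cells (2.03 to 2.67) and 2.05 in CTR GFP-negative cells (1.91 to 2.20). All of these intervals overlapped, although the level of DCN spanned from 24.7 to 1507 CPM. KERA, the next gene in the cluster, had 3 reads or fewer in every library, and EPYC had 10 reads in RA GFP-negative cells and 0 in the other libraries. High levels in the cluster were thus seen for DCN and LUM alone.

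Of 10 further small leucine-rich proteoglycan genes, 3 of the 6 with 10 CPM or more in either GFP-negative library were at least 2-fold higher with RA and 0 were lower, with a median log2 difference of 1.03, and in GFP-positive cells 4 of 6 were higher, 1 of them passing through 1 library, and 0 lower, with a median of 1.84. Among those with 10 CPM or more, the largest differences with RA in GFP-negative cells were those of OGN, at 3.13, and ASPN, at 2.19, above DCN and LUM, and the lowest was that of PODN, at -0.17. OGN was at 32.4 CPM in CTR and 292 CPM with RA there, and at 2.09 and 25.9 CPM in GFP-positive cells.

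ELN (ENSG00000049540, chr7:73442119-73484237, plus strand) encodes elastin, the rubber-like core of elastic fibres. Its level was 2076 CPM in RA GFP-negative cells (2058 to 2093), 681 in CTR GFP-negative cells (657 to 705), 257 in RA GFP-positive cells (251 to 263) and 43.9 in CTR GFP-positive cells (41.5 to 46.4). No intervals overlapped, and the RA library was the higher in each fraction. Among the 10 genes ELN had the largest difference with RA in GFP-negative cells, a ratio of 3.05 (2.94 to 3.16), and the second largest in GFP-positive cells, a ratio of 5.85 (5.51 to 6.22). The lncRNA ELN-AS1 on the opposite strand shares 2.51% of the exon bases of ELN, where reads counted without strand cannot be assigned, and it had 12 reads or fewer per library.

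FBN1 (ENSG00000166147, chr15:48700510-48937918, minus strand) encodes fibrillin-1, the microfibril protein on which elastin is laid down. Its CPM was 1021 in RA GFP-negative cells (1009 to 1034), 598 in CTR GFP-negative cells (576 to 621), 236 in RA GFP-positive cells (231 to 242) and 36.1 in CTR GFP-positive cells (33.9 to 38.4). FBN1 showed the most unequal RA differences of the elastic fibre pair. In GFP-positive cells it was 6.55-fold higher with RA (6.13 to 7.00), the largest ratio among the 10 genes, whereas in GFP-negative cells the ratio was 1.71 (1.64 to 1.78) and did not reach 2-fold. Its GFP-positive level moved from 6.03% of the GFP-negative level in CTR (5.61 to 6.48) to 23.1% with RA (22.5 to 23.8), and that of ELN from 6.44% (6.03 to 6.88) to 12.4% (12.1 to 12.7).

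Inside a library, which needs no scaling, ELN had 2.03 times the reads of FBN1 in RA GFP-negative cells (2.002 to 2.06) and 1.09 times in RA GFP-positive (1.05 to 1.12), 1.22 times in CTR GFP-positive (1.12 to 1.32) and 1.14 times in CTR GFP-negative cells (1.08 to 1.20). RA GFP-negative cells therefore stood apart from the other libraries in this ratio. Of 16 further elastic fibre genes, 4 were at least 2-fold higher with RA in GFP-negative cells and 1 was lower, with a median of 0.75, and 6 of 15 were higher, 2 passing through 1 library, and 0 lower in GFP-positive cells, with a median of 0.77. FBLN1 and FBLN5, which encode fibulins, differed most in GFP-negative cells, by 1.92 and 1.87, and the lowest values were -1.10 for MFAP5 and -0.25 for LOX, the cross-linking enzyme. FBN2, which encodes the other fibrillin of this list, was in contrast to FBN1 most abundant in CTR GFP-positive cells, at 786 CPM, against 546 with RA there and 366 and 623 CPM in CTR and RA GFP-negative cells.

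Matricellular genes other than POSTN gave 3 of 12 at least 2-fold higher with RA in GFP-negative cells and 1 lower (median 0.53), and 10 of 11 higher in GFP-positive cells (median 1.63), of which 1 of the 3 (CCN3) and 4 of the 10 passed through 1 library. CCN3 and SPP1 had the highest log2 differences in GFP-negative cells, 2.19 and 2.12, and TNXB and SPARCL1 the lowest, -1.43 and -0.41. Of 8 fibronectin receptor genes, ITGA4 alone reached 2-fold with RA in GFP-negative cells, with 2.05 and passing through 1 library, followed by SDC4 with 0.82, and none of 6 did in GFP-positive cells. Their medians were 0.60 and 0.29, below the FN1 differences of 0.69 and 1.25.

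PDGFRA (ENSG00000134853, chr4:55095447-55164412, plus strand) encodes the alpha receptor of platelet-derived growth factor. Its level was 295 CPM in RA GFP-positive cells (289 to 302), 138.5 in RA GFP-negative cells (134 to 143), 132 in CTR GFP-positive cells (128 to 137) and 87.3 in CTR GFP-negative cells (79.1 to 96.2). Of the 10 genes it alone stood higher in the GFP-positive fraction, 2.13-fold with RA (2.05 to 2.22) and 1.51-fold in CTR (1.37 to 1.68). The middle groups, RA GFP-negative and CTR GFP-positive cells, had overlapping intervals, and their order turned under upper quartile scaling. PDGFRA was higher with RA by a ratio of 2.23 in GFP-positive cells (2.15 to 2.32) and of 1.59 in GFP-negative cells (1.43 to 1.76). The combination of a higher level with RA in both fractions and a higher level in GFP-positive cells in both treatments was found in 12.4% of the 12407 genes.

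PDGFRB (ENSG00000113721, chr5:149493402-149535435, minus strand) encodes the beta receptor, known from pericytes and fibroblasts. Its CPM was 472 in RA GFP-negative cells (464 to 481), 257 in CTR GFP-negative cells (242 to 272), 124 in RA GFP-positive cells (119 to 128) and 23.3 in CTR GFP-positive cells (21.5 to 25.1). Both GFP-negative libraries were above both GFP-positive libraries with no overlap. PDGFRA, in contrast, was higher in the GFP-positive fraction of each treatment. RA was associated with a ratio of 5.31 in GFP-positive cells (4.88 to 5.78) and 1.84 in GFP-negative cells (1.74 to 1.96). The GFP-positive level was 9.07% of the GFP-negative level in CTR (8.24 to 9.98) and 26.2% with RA (25.2 to 27.2).

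Reads of PDGFRA over reads of PDGFRB gave 5.68 in CTR GFP-positive cells (5.23 to 6.18), 2.39 in RA GFP-positive cells (2.29 to 2.49), 0.340 in CTR GFP-negative cells (0.303 to 0.381) and 0.293 in RA GFP-negative cells (0.282 to 0.304). The alpha receptor thus had more reads in both GFP-positive libraries and the beta receptor in both GFP-negative libraries, and the ratio spanned 19.4-fold. That was the widest span of the 5 pairs compared in this way, the others being 3.19-fold for POSTN over FN1, 1.87-fold for ELN over FBN1, 1.76-fold for FN1 over VIM and 1.14-fold for DCN over LUM. Reads of both receptors scale alike with library size inside a library, so that these ratios do not rest on a scaling between libraries.

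**Figure D2:**
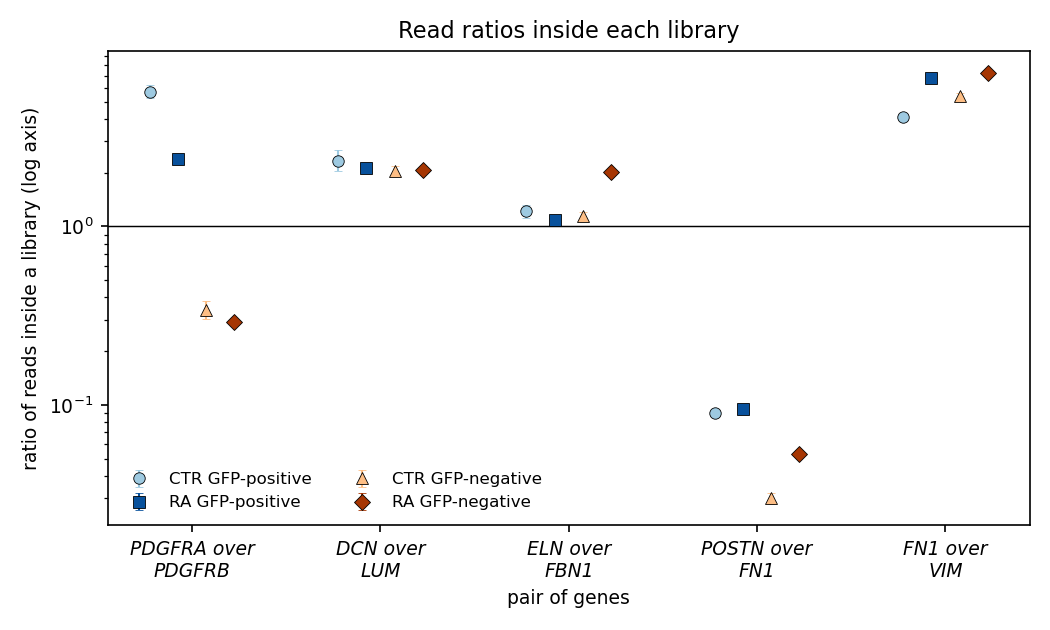
Ratio of the reads of a pair of genes inside each library (log axis), with Clopper-Pearson 95% intervals and a line at 1. PDGFRA over PDGFRB lies above 1 in both GFP-positive libraries and below 1 in both GFP-negative libraries, while DCN over LUM is between 2.05 and 2.33 in the 4 libraries.

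The receptor promoters are printed because the receptors went in opposite directions between fractions. RefSeq gives PDGFRA a pair of starts, and the 200 bases before each are shown (GRCh38.p14, chr4:54229093-54229292 and chr4:54233760-54233959, plus strand) with those of PDGFRB (chr5:150155846-150156045, minus strand), with capitals for the same motifs.
PDGFRA, first start: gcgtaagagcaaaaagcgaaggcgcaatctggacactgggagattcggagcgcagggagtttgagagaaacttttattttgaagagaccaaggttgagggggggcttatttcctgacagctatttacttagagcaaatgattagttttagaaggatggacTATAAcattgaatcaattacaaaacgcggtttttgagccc
PDGFRA, second start: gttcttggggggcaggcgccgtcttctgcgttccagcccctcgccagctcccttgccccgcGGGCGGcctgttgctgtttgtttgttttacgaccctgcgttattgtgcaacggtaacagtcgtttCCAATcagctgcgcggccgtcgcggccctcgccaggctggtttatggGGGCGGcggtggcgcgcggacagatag
PDGFRB: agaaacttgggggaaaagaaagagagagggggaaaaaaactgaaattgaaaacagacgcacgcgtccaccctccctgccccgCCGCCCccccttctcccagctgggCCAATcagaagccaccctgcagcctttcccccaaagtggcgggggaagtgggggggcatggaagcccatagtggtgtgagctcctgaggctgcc
The first PDGFRA start had a TATAA that began 40 bases before it, the second had CCAAT and 2 copies of GGGCGG, and PDGFRB had CCAAT and 1 GGGCGG on the opposite strand. The GC share of the 250 bases was 46.8% and 64.0% at the PDGFRA starts and 58.4% for PDGFRB. Promoters were found for 6 of the 10 genes, the others being FBN1 and VIM, and none for DCN, LUM, ELN and THY1. The counts are per gene, so that use of either PDGFRA start was not measured. A protein-coding gene model on the same strand shares 16.1% of the exon bases of PDGFRA, and it is absent from the genes that were counted.

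Of the genes for PDGF ligands, 0 of 4 in GFP-negative cells and 0 of 3 in GFP-positive cells were 2-fold higher with RA (medians 0.48 and 0.11). PDGFD was lower in GFP-positive cells, at 20.0 CPM with RA and 82.1 CPM in CTR, a log2 difference of -1.98. In GFP-negative cells the differences ran from -0.17 for PDGFD over 0.50 for PDGFC to 0.72 for PDGFB.

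THY1 (ENSG00000154096, chr11:119286186-119295695, minus strand) encodes a surface glycoprotein of fibroblasts and was, per kb, the lowest of the 10 genes in every library. It had 1741 reads in RA GFP-negative cells, 143 in CTR GFP-negative cells, 211 in RA GFP-positive cells and 42 in CTR GFP-positive cells, or 67.8 (64.7 to 71.1), 30.5 (25.7 to 35.9), 7.89 (6.86 to 9.03) and 1.47 CPM (1.06 to 1.98). Its order was that of most of the other genes, without overlap, but both GFP-positive libraries lay under 10 CPM. The RA ratio of 5.38 in GFP-positive cells (3.85 to 7.69) is therefore given as a value only, and the ratio in GFP-negative cells was 2.23 (1.88 to 2.66). In the fraction comparisons THY1 passed the limit through its GFP-negative level alone, with GFP-positive levels of 4.81% (3.33 to 6.83) in CTR and 11.6% (10.0 to 13.4) with RA. The lncRNAs THY1-AS1 and USP2-AS1 on the opposite strand share 9.16% and 3.36% of its exon bases, and the number of reads in these shared bases was not measured. USP2-AS1 itself had 83 reads in RA and 77 in CTR GFP-positive cells, where THY1 had 211 and 42.

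VIM (ENSG00000026025, chr10:17270240-17279592, plus strand) had the smallest RA differences of the 10. Its level was 1396 CPM in RA GFP-negative cells (1382 to 1411), 1158 in CTR GFP-negative cells (1127 to 1189), 320.0 in RA GFP-positive cells (313 to 327) and 223 in CTR GFP-positive cells (218 to 229). The levels differed more between fractions than between RA and CTR. GFP-positive cells held 19.3% of the GFP-negative level in CTR (18.6 to 20.0) and 22.9% with RA (22.4 to 23.5). The RA ratios of 1.43 in GFP-positive cells (1.39 to 1.48) and 1.21 in GFP-negative cells (1.17 to 1.24) stayed under 2-fold. In GFP-negative cells the log2 difference of 0.27 was also below the median of 8 reference genes, 0.30, all of which were above 0, and it lay above 68.4% of all genes.

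For VIM in GFP-positive cells the difference was 0.52 against a reference median of -0.07, with 3 of 8 reference genes above 0. FN1 had 6.83 times the reads of VIM in RA GFP-positive cells (6.67 to 6.98), 7.23 times in RA GFP-negative (7.15 to 7.31), 4.11 times in CTR GFP-positive (3.99 to 4.22) and 5.41 times in CTR GFP-negative cells (5.26 to 5.57), so that the ratio was higher with RA in each fraction. On the opposite strand VIM-AS1 shares 12.7% of the exon bases of VIM and an unnamed lncRNA 11.96%, with at most 24 and 160 reads. Among 11 further intermediate filament genes, 0 of 7 reached 2-fold with RA in either direction in either fraction, with medians of 0.03 in GFP-positive cells and 0.45 in the GFP-negative fraction, where values ran from -0.53 for SYNM and -0.24 for DES to 0.64 for KRT8 and 0.75 for LMNA.

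Read across the 10 genes, RA in GFP-positive cells gave 8 that were at least 2-fold higher, against 4.14% of 11186 genes that reached 10 CPM, and 0 that were lower, against 1.67%. VIM was within 2-fold and THY1 was not counted. The comparisons share libraries with each other, so their values stand side by side and are not independent of each other. The median log2 difference was 2.01 over the 10 genes and 2.17 over the 9 without THY1, against 0.02 for all genes compared. DCN, LUM, ELN, FBN1 and PDGFRB had the largest differences, between 2.17 and 2.68, whereas FN1, POSTN and PDGFRA lay between 1.15 and 1.32.

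In GFP-negative cells 5 of the 10 genes were at least 2-fold higher with RA, namely ELN, POSTN, DCN, LUM and THY1, against 4.95% of 11606 genes, and 0 were lower, against 3.18%. Their log2 differences were 1.61, 1.52, 1.49, 1.47 and 1.13, and those of PDGFRB, FBN1, FN1, PDGFRA and VIM were 0.88, 0.77, 0.69, 0.66 and 0.27. The median of the 10 was 1.00 and that of all genes 0.08. This comparison moved with the scaling. Over all genes 574 were higher and 369 lower, or 60.9% higher, but with library size alone 448 were higher and 512 lower, or 46.7% higher, and the median of all genes shifted by -0.14. Relative to that median the median of the 10 genes was 0.93 under both scalings, since a scaling shifts all genes nearly alike, and THY1 slipped just under 2-fold with library size alone.

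**Figure D3:**
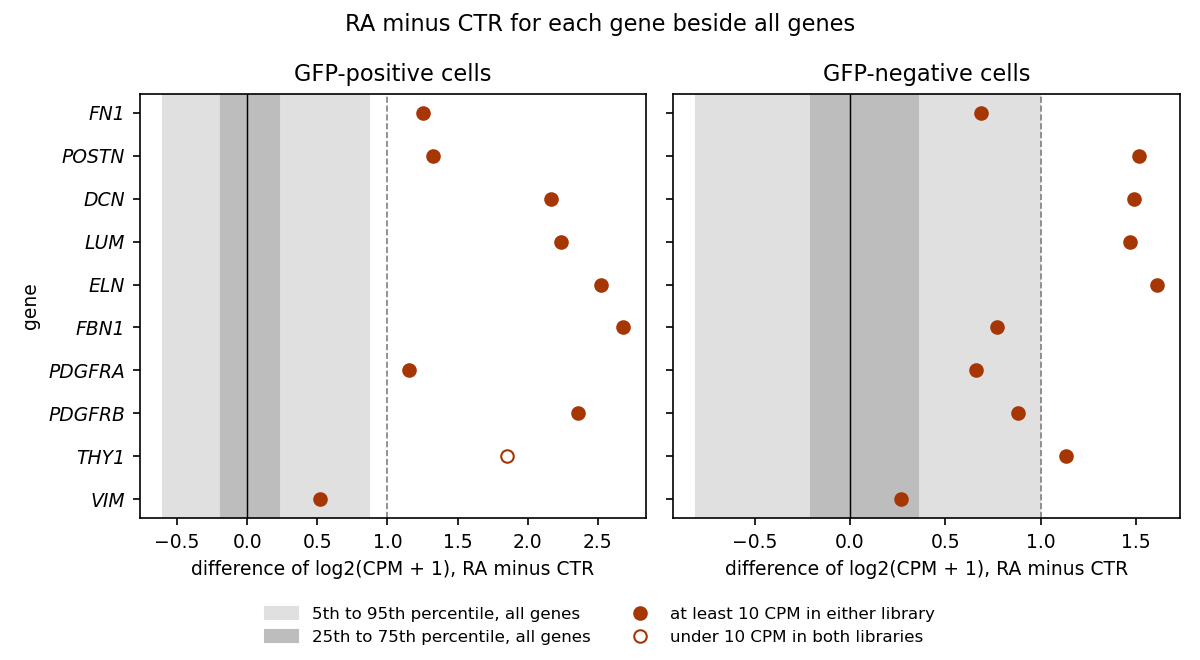
Difference of log2(CPM + 1), RA minus CTR, of each of the 10 genes in GFP-positive (left) and GFP-negative cells (right). Grey bands hold the middle 50% and 90% of all genes with 10 CPM or more in either library, the dashed line is at 2-fold, and the open symbol is THY1, under 10 CPM in both libraries. All values are above 0, from 0.52 to 2.68 on the left and from 0.27 to 1.61 on the right.

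Between fractions in CTR, 9 of the 10 genes were at least 2-fold lower in GFP-positive cells, against 13.3% of 11806 genes, and 0 were higher, against 11.9%. Of the 9, THY1 passed through 1 library, here and in the comparison with RA. The median log2 difference of the 10 was -3.54, against 0.08 for all genes, and single values ran from -4.50 for LUM to 0.59 for PDGFRA. With RA 9 of 10 were again lower, against 12.4% of 11850 genes, and PDGFRA was higher, against 9.97%, with a median of -2.17 against 0.02. Among the 9 genes below 0, POSTN had the difference nearest to 0 in both treatments, -1.17 and -1.36, and DCN and LUM the farthest.

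The GFP-positive level was a larger percent of the GFP-negative level with RA than in CTR for 9 of the 10 genes, with POSTN as the exception, and for 48.4% of the 12407 genes with 10 CPM or more in at least 1 library. As a ratio of these percents, RA over CTR, the change was widest for FBN1 and PDGFRB and, among the 9, narrowest for VIM and PDGFRA. For FN1 the percent was 14.6% (14.4 to 14.9) in CTR and 21.6% (21.4 to 21.8) with RA. Inside 1 treatment the percents were thus unlike from gene to gene, from 4.06% to 151% in CTR and from 7.42% to 213% with RA. The part of carried-over GFP-negative cells in the GFP-positive levels was not tested.

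**Figure D4:**
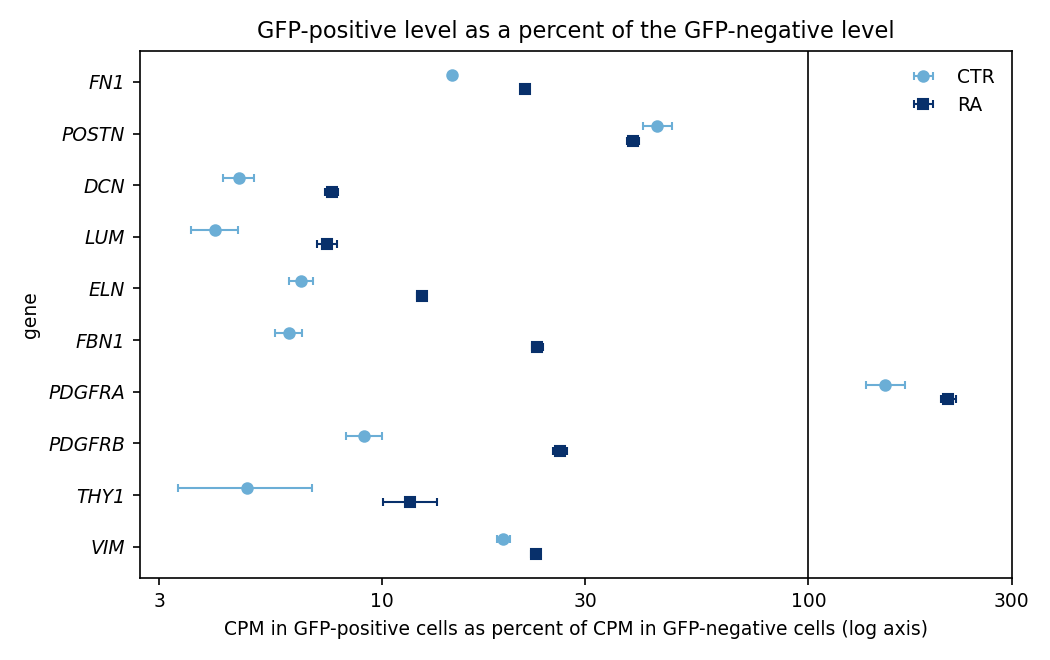
CPM in GFP-positive cells as a percent of CPM in GFP-negative cells of the same treatment (log axis), with Clopper-Pearson 95% intervals and a line at 100%. The percent is higher with RA for 9 genes and lower for POSTN, and PDGFRA lies above 100% in both treatments.

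Levels of different genes can be set side by side only per length. In CPM per kb of the canonical transcript, FN1 held rank 1 and VIM rank 2 in every library, at 1203 and 648 in RA GFP-negative cells and at 109 and 104 in CTR GFP-positive cells. ELN held rank 3 with RA in both fractions and in CTR GFP-negative cells, at 611 in RA GFP-negative cells, but rank 5 in CTR GFP-positive cells at 12.9. PDGFRA held rank 9 in both GFP-negative libraries and rank 4 or 5 in GFP-positive cells, and THY1 was last in all 4. With the length of all exons instead, FN1 stayed highest and THY1 lowest in all 4 libraries, and VIM changed from rank 2 to rank 4 in RA GFP-negative cells.

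The likeness of each gene to others was measured as the Euclidean distance between log2(CPM + 1) values over the 4 libraries after removal of the gene's own mean. The closest of the 45 pairs among the 10 genes was DCN and LUM, at 0.09, followed by FBN1 and PDGFRB at 0.46 and ELN and THY1 at 0.60. PDGFRA was far from every other gene, from 2.19 for POSTN to 5.04 for LUM. Among 12249 other named genes with 10 CPM or more in at least 1 library, those nearest to FN1 were SGMS2, MYC and the integrin gene ITGA8, at 0.08, 0.11 and 0.14, and those nearest to POSTN were AGTR1, PDE3A and SAPCD2, at 0.17, 0.18 and 0.22. COL8A1 was nearest to both DCN and LUM, at 0.19 and 0.21, followed by FNDC1 (0.55) and IGFBP3 (0.56) for DCN and by IGFBP3 (0.56) and FBLN5 (0.57) for LUM.

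ELN lay nearest to GREM1, BGN and NPR3, at 0.21, 0.27 and 0.40, and FBN1 to SMOC2, NPR3 and IL33, at 0.21, 0.41 and 0.46. For PDGFRB the nearest were IL33, KLF4 and TLE1, at 0.17, 0.21 and 0.29, and for PDGFRA STEAP2, SH3RF3 and TIAM1, at 0.17, 0.20 and 0.21. THY1 was nearest to SERPINE2 (0.23), the collagen gene COL1A2 (0.23) and TMEM119 (0.29), and VIM to PSMB8 (0.13), VAMP8 (0.17) and TINAGL1 (0.18). With only 4 libraries, a small distance describes these libraries. Several of the near genes were low in CTR GFP-positive cells, among them SGMS2 at 1.15 CPM and MYC at 1.81 CPM. At such levels the pseudocount of 1 CPM shrinks differences, so a small distance there does not mean like ratios of CPM.

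Of 5 fibrillar collagen genes, whose products form the fibrils that DCN and LUM bind, 3 were at least 2-fold higher with RA in GFP-positive cells (median 1.89) and 1 in GFP-negative cells (median 0.65), COL1A1 with 1.26, followed by COL1A2 with 0.97. Of 15 mesenchymal transcription factor genes, 8 of 12 were at least 2-fold higher with RA in GFP-negative cells and 0 lower (median 1.28), and 5 of 7 in GFP-positive cells (median 1.26), with 2 in each fraction passing through 1 library. Among those with 10 CPM or more, TWIST1 and PRRX2 led in GFP-negative cells, at 2.64 and 2.32, and TCF21, a factor of cardiac fibroblast progenitors, had the lowest value, -0.44, followed by ZEB1 at -0.03.

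Of 8 further markers of fibroblasts beside THY1, 1 reached 2-fold with RA in GFP-negative cells (ENG 1.05, NT5E 0.69, lowest PDGFRL -0.28, median 0.36), and in GFP-positive cells 0 of 5 were higher and S100A4, passing through 1 library, was lower, at -1.61 (median -0.18). They summed to 303 and 294 CPM in CTR and RA GFP-positive cells and to 487 and 691 CPM in the GFP-negative fraction, led by CDH11 in all 4.

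Of 10 pericyte and smooth muscle markers, 2 were 2-fold higher with RA in GFP-negative cells (TAGLN 1.14, CSPG4 1.11, lowest ABCC9 -0.50 and KCNJ8 -0.22, median 0.52), and in GFP-positive cells 4 were higher and 1 lower (median 0.41), of which MYH11 and the lower one passed through 1 library. They summed to 809 CPM in CTR and 1551 CPM with RA in GFP-positive cells, led by CNN1 and ACTA2, and to 1494 and 2738 CPM in the GFP-negative fraction, led by NOTCH3. MYH11, the smooth muscle myosin gene, singled out after its values were seen, stood at 3.35 CPM in CTR and 115 CPM with RA in GFP-positive cells. The part of these cells in the PDGFRB levels was not tested.

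The 10 cardiomyocyte markers were all at least 2-fold higher in the GFP-positive fraction in both treatments, and summed to 19858 CPM in CTR and 17728 CPM with RA there, led by MYH6, against 972 and 533 CPM in GFP-negative cells, led by TNNT2. They include NKX2-5, whose locus carries the GFP used for the sort, so that its direction was fixed beforehand. With RA it also passed through 1 library, at 463 CPM in GFP-positive and 9.74 CPM in GFP-negative cells. With RA 3 were 2-fold lower in GFP-negative cells (TTN -1.62, RYR2 -1.36, highest PLN 0.00, median -0.88), and 0 of 10 reached 2-fold in GFP-positive cells (median -0.30).

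The 8 endothelial markers summed to 91.5 and 120.5 CPM in CTR and RA GFP-positive cells, led by EGFL7, and to 434 and 505 CPM in the GFP-negative fraction, led by KDR and EGFL7. With RA 2 of 8 were 2-fold higher in GFP-negative cells (ERG 1.15, TIE1 1.14, lowest KDR -0.52, median 0.60) and 1 of 3 in GFP-positive cells (median 0.36), and ERG and the latter passed through 1 library. In CTR and RA GFP-positive cells CDH5 was at 0.838 and 1.16 CPM, ESAM at 0 and 0.935, FLT1 at 3.21 and 11.6 and KDR at 14.8 and 9.68 CPM.

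The 6 epicardial markers summed to 752 CPM in CTR and 441 CPM with RA in GFP-negative cells, led by TBX18, and to 69.1 and 71.6 CPM in the GFP-positive fraction, led by TBX18 and ALDH1A2, and none was at 0. With RA TBX18 alone was 2-fold lower in GFP-negative cells (-1.05, BNC1 -0.96, highest MSLN 0.29, median -0.69), and in GFP-positive cells 1 of 4 was higher and 2 lower (median -0.56), with 1 in each direction passing through 1 library. In GFP-negative cells their summed level was thus lower with RA where that of the 10 genes was higher.

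The 7 epithelial markers summed to 200.4 CPM in CTR, led by CDH1, and 643 CPM with RA, led by CLDN4, in GFP-negative cells, and to 40.1 and 79.6 CPM in the GFP-positive fraction, led by EPCAM. With RA 4 of 7 were 2-fold higher in GFP-negative cells (CLDN4 3.59, EPCAM 2.75, median 1.53) and 2 of 3 in GFP-positive cells (median 1.06), of which 2 and 1 passed through 1 library. The 9 hepatic and gut markers summed to 86.7 CPM in CTR, led by TTR, and 744 CPM with RA, led by AFP, in GFP-negative cells, and to 12.9 and 45.2 CPM in the GFP-positive fraction, led by APOA1 and AFP. With RA 7 of 8 were 2-fold higher in GFP-negative cells (AFP 6.87, APOA1 4.49, median 3.66) and TTR was lower (-2.55), and in GFP-positive cells 1 of 2 was higher (median 2.54). All 7, and the 1 in GFP-positive cells, passed through 1 library, that with RA. FOXA2 had 0 reads in both CTR libraries, and CDX2 and HNF4A had 0 in CTR GFP-positive cells.

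The 10 neural and eye markers summed to 275 CPM in CTR, led by PAX6, and 152 CPM with RA, led by STMN2, in GFP-negative cells, and to 23.7 and 83.1 CPM in the GFP-positive fraction, led by MAP2 and STMN2. With RA 6 of 8 were 2-fold lower in GFP-negative cells (PAX6 -3.36, SIX3 -2.92, median -2.16) and STMN2 was higher (2.05), and in GFP-positive cells 2 of 2 were higher (median 3.01) and SIX6 had 0 reads with RA. Of these 6, 5 passed through 1 library, that of CTR, and so did the 2 in GFP-positive cells, through that with RA. The 8 pigment cell and neural crest markers summed to 724 and 107 CPM in CTR and RA GFP-negative cells, led by PMEL, and to 103 and 87.7 CPM in the GFP-positive fraction, led by MITF. All 5 compared were 2-fold lower with RA in GFP-negative cells (TYR -4.00 and DCT -3.78, both passing through 1 library, median -3.18) and 0 of 2 in GFP-positive cells (median -0.22), and FOXD3 had 0 reads in RA GFP-positive and CTR GFP-negative cells. Below 10 CPM in GFP-negative cells were TFAP2B, at 0.852 CPM in CTR and 9.51 with RA, FOXD3, at 0 and 1.79, and SOX10, at 6.39 and 3.78 CPM.

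The 7 cartilage markers summed to 635 and 479 CPM in CTR and RA GFP-negative cells and to 1242 and 598 CPM in the GFP-positive fraction, led by COL2A1 in all 4. With RA 2 of 6 were 2-fold higher in GFP-negative cells (MATN4 2.14, SOX9 1.77) and 1 lower (COL9A1 -1.52, followed by COL2A1 -0.76, median 0.31), and in GFP-positive cells 1 of 2 was lower (median -0.93), and MATN4 and COL9A1 passed through 1 library. Of 8 reference genes none reached 2-fold in any comparison with the main scaling, and RPLP0 (0.44) and HPRT1 (0.41) were highest with RA in GFP-negative cells. Between fractions in CTR the highest reference value was 0.998. It passed 2-fold with upper quartile factors, at 1.02, and with TMM factors of the pair of libraries, at 1.04.

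The summed levels of several marker lists thus differed between RA and CTR in GFP-negative cells beside the 10 genes, and the share of mitochondrial reads was 5.56% and 7.48% there against 14.9% and 14.1% in the GFP-positive fraction, RA first. The part of either in the differences of the 10 genes was not tested.

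**Figure D5:**
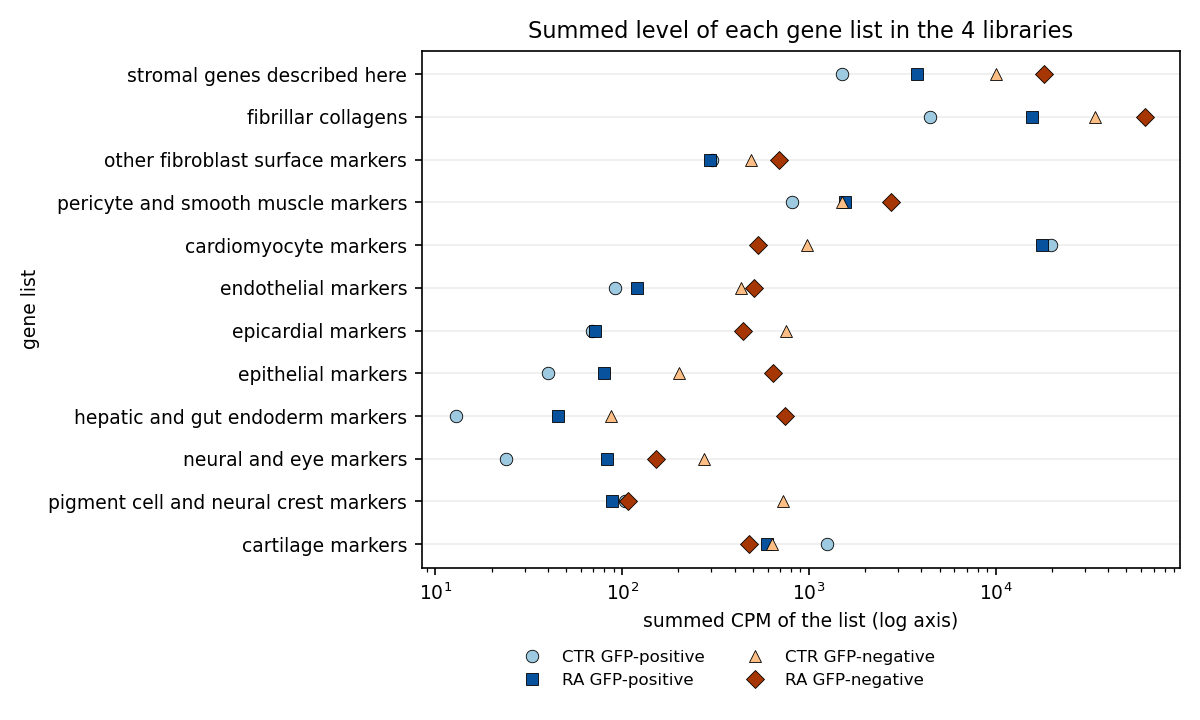
Summed CPM (log axis) of the 10 stromal genes and of 11 lists of collagen and cell type markers in the 4 libraries. The stromal genes and the fibrillar collagens run in the same order over the libraries. It rises from CTR GFP-positive over RA GFP-positive and CTR GFP-negative to RA GFP-negative cells. The endothelial, the epithelial, and the hepatic and gut markers run in this order too, so it is not particular to stromal genes. Cardiomyocyte markers are high in GFP-positive cells, and epicardial, neural and pigment cell markers are highest in CTR GFP-negative cells.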

How the data were processed

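According to the submitters' processing notes and the study's methods, the authors trimmed the reads, aligned them to hg19 with GSNAP version 2014-12-06, handled alignments with SAMtools 0.1.18 and counted uniquely placed reads per Ensembl gene, without strand, with HTSeq 0.6.1p1. The deposited values are these counts, not normalized. The Ensembl release is not given in the sources used here.

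Identifiers were matched to symbols for 92.2% of the 60234 genes. Counts were converted to CPM with TMM factors (0.951 for RA GFP-positive, 0.979 for RA GFP-negative, 1.00 for CTR GFP-positive and 1.07 for CTR GFP-negative cells) from edgeR 4.0.16 in R 4.3.3. Differences were taken with a pseudocount of 1 CPM, intervals with scipy 1.17.1 in Python 3.11.15, and figures with matplotlib 3.10.9. The smallest library had 4371101 reads, but the width of an interval rests on the reads of the gene in each library. Gene positions and lengths are from the GENCODE annotation lifted to GRCh37, and promoters from RefSeq.

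The members and lists were chosen with earlier results of these data known. Named are all 10 members, from each of 19 context lists the 2 largest rises and 2 largest falls with RA in GFP-negative cells among genes with 10 CPM or more in either library and, for cell type lists, the most abundant gene per library, and the 3 genes nearest each member. Other names (FBN2, MYH11, S100A4, KERA, EPYC, CDH5, ESAM, FOXA2, CDX2, HNF4A, SIX6, FOXD3, TFAP2B, SOX10, FLT1) were chosen after their values were seen, and NKX2-5 is named as the locus of the sort. NEFL was not analysed here. Recalculations used a filter of 4 reads, thresholds of 1.5-fold and 4-fold, pseudocounts of 0.25 and 5 CPM, thinning to the smallest library, and other scalings: library size, with or without mitochondrial genes and the 10 most abundant, the upper quartile, TMM per pair, and size factors of DESeq2 1.42.0. The procedure was tested on simulated data.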

Additional observations from a re-analysis of the deposited data

How the results depend on the processing

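The 40 log2 differences of the 10 genes kept their direction in all 320 recalculations, 8 alternatives of scaling, pseudocount and depth for each. Most of this was fixed beforehand, since a pseudocount cannot change a direction and a scaling shifts all genes nearly alike. The widest such shift of the median of all genes was -0.14, for RA in GFP-negative cells, where the smallest difference of the 10 was 0.27. The median of the 10 genes ran from 1.60 to 2.22 for RA in GFP-positive cells, from 0.87 to 1.02 for RA in GFP-negative cells, from -3.70 to -2.99 between fractions in CTR and from -2.21 to -2.10 between fractions with RA. The numbers past the threshold moved with the threshold. In brackets is the share of all genes past the same limit. At 1.5-fold, 9 (12.8%) instead of 5 were higher with RA in GFP-negative cells, and 1 (24.0%) instead of 0 was higher in GFP-positive than GFP-negative cells in CTR. At 4-fold, 5 (1.27%) instead of 8 were higher with RA in GFP-positive cells, 0 (1.30%) instead of 5 in GFP-negative cells, and 0 (3.11%) instead of 1 was higher in GFP-positive than GFP-negative cells with RA, while 8 (6.34%) instead of 9 in CTR and 7 (4.84%) instead of 9 with RA were lower. With the filter of 4 reads, 9 (3.35%) instead of 8 were higher with RA in GFP-positive cells, THY1 being counted. With library size alone, 4 (3.83%) instead of 5 were at least 2-fold higher with RA in GFP-negative cells. Without mitochondrial and the 10 most abundant genes it was also 4 (3.79%).

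Chosen after seeing the data, the order of levels was recalculated under 5 of the alternatives, and 8 or 9 genes followed it. POSTN in RA GFP-positive minus CTR GFP-negative cells changed from 0.15 to -0.021 with library size alone. PDGFRA in RA GFP-negative minus CTR GFP-positive cells changed from 0.07 to -0.046 with upper quartile factors and to -0.036 without mitochondrial and the 10 most abundant genes. The cause was not tested. Depth limits THY1 most, with 42 reads in CTR GFP-positive and 143 in CTR GFP-negative cells.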
